A study of Arabidopsis thaliana with 28 samples.

Results

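The homeodomain-leucine zipper class II (HD-Zip II) genes of shade responses were followed in whole 7-d-old Arabidopsis thaliana seedlings. The members are the genes ATHB2, ATHB4, HAT1, HAT2 and HAT3, taken by gene identifier, with earlier results of these data known. They are 5 of the 33602 genes listed in each file and 5 of the 10 HD-Zip II genes of the family. RNA sequencing covered 28 libraries of a pif7 mutant, whose allele the labels do not name, and of the wild type Col-0. Seedlings of each genotype grew on MS plates in long days (16 h light, 8 h dark), either under an oscillating regime held at 27 °C from ZT4 to ZT12 and at 17 °C for the rest of the day, or at a constant 17 °C. ZT counts the hours after lights on. Sampling covered 7 times (ZT0, ZT4, ZT5, ZT8, then every 4 h to ZT20), and each condition is a single library without replicates. The labels give 27 °C to all 14 oscillating libraries, including those outside the warm hours, so the regime was read from that label together with the growth protocol.

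HD-Zip II proteins are plant transcription factors in which a DNA-binding homeodomain is followed by a leucine zipper, so that they bind DNA as dimers, and most act as repressors. ATHB2 is the classic early gene of the shade response: light low in red relative to far-red inactivates phytochromes, which lets PHYTOCHROME-INTERACTING FACTORs (PIFs) such as PIF7 act on it, and stems and petioles elongate. HAT3 and ATHB4 work with ATHB2 in shade and in setting the upper and lower sides of leaves, HAT1 also takes part in brassinosteroid responses, and HAT2 responds to auxin. PIFs also act in growth responses to warmth, which is the question the 2 regimes and the pif7 mutant address.

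The members lie on 4 chromosomes, with all coordinates in TAIR10 as the files give them. ATHB2 (AT4G16780, chr4:9449114-9450743) and HAT1 (AT4G17460, chr4:9739663-9741146) are on the plus strand. ATHB4 (AT2G44910, chr2:18517887-18519525), HAT2 (AT5G47370, chr5:19216312-19217909) and HAT3 (AT3G60390, chr3:22320595-22322586) are on the minus strand. The files' span of ATHB4 is the coding region alone, without UTRs. None of the 5 overlaps another gene of the files, and each has 4 exons in RefSeq, with a coding length of 849 bases in HAT1 to 957 bases in ATHB4.

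The third exon, which encodes the end of the homeodomain with the helix that contacts DNA, is 80 bases long in all 5 genes. Its length is the same in HAT14, ATHB17 and ATHB18 of the other HD-Zip II genes. The exon of each member is given from RefSeq TAIR10.1, with capitals for the 47 bases that all 5 share.
ATHB2 (chr4:9450121-9450200, plus strand): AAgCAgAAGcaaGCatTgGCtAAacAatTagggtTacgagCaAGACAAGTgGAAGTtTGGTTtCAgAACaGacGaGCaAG
HAT1 (chr4:9740511-9740590, plus strand): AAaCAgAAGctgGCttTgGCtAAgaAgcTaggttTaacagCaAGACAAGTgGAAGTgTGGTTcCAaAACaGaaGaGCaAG
HAT2 (chr5:19216888-19216967, minus strand): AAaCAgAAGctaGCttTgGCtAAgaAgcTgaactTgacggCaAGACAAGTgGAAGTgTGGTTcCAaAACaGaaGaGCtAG
HAT3 (chr3:22321491-22321570, minus strand): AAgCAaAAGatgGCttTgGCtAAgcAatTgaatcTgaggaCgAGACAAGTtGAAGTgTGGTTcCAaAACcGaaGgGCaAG
ATHB4 (chr2:18518536-18518615, minus strand): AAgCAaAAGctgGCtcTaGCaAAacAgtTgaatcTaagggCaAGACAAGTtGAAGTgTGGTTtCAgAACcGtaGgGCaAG
Over aligned coding bases, identity between members ran from 69.0% to 77.3%, with HAT1 and HAT2 the closest pair of members. Pairs of a member with another HD-Zip II gene overlapped this range, from 63.7% for ATHB4 and ATHB17 to 72.5% for ATHB2 and HAT14. The non-members HAT9 and HAT22 had 81.2%. The HAT1 and HAT2 transcripts also share the longest identical run, at 38 bases, so a read within it could not be told apart. How the authors' counting treated such reads is not given in the sources used here.

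Upstream of the genes, the pattern CAATNATTG, a general form of HD-Zip sites with any middle base N, was searched in RefSeq TAIR10.1. The window was the 1000 bases before the transcript start (the pattern is its own reverse complement, so 1 strand covers both). The middle base is A in the ATHB2 match and G in the HAT1 match, and which HD-Zip class binds either form was not tested. Of the 10 HD-Zip II genes only ATHB2 and HAT1 hold it, once each, and 3.44% of 27443 genes hold it in a window of that length. The matches start 477 bases before ATHB2 and 738 bases before HAT1, and are shown in capitals with the flanking bases, since these are the members whose levels moved between the regimes.
ATHB2 (chr4:9448591-9448691, plus strand): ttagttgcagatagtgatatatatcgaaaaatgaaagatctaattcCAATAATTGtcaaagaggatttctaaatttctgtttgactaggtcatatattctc
HAT1 (chr4:9738734-9738834, plus strand): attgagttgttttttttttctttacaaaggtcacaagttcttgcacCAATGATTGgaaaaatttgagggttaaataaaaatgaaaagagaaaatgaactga
The G-box CACGTG, a PIF binding motif, is in none of the 5 windows and in 14.8% of all. Of the other HD-Zip II genes, HAT14 and ATHB17 hold it, with 1 match each. The PBE-box, CACATG or its reverse complement CATGTG, is another motif that PIFs bind. It is found 2 times upstream of HAT1, 3 times upstream of HAT2 and 1 time upstream of HAT3. Of the other HD-Zip II genes only HAT22 holds it, 2 times. At least 1 match is in 37.7% of all windows. No binding was measured here, so these matches only describe the sequence.

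All 5 members were detected in every library and passed the filter on low values, which kept 21031 genes with a TPM (a level scaled for transcript length and for the library) of at least 1 in at least 2 libraries. HAT1 was the most abundant, with a median of 34.0 TPM over the 28 libraries and a range of 21.2 to 103 TPM. HAT2 had a median of 19.3 TPM (10.03 to 42.1 TPM) and HAT3 of 16.7 TPM (12.9 to 27.5 TPM). ATHB2, the best known member, stood at 6.48 TPM (4.55 to 16.8 TPM), and ATHB4 at 2.66 TPM (0.975 to 4.58 TPM). The order was steady at both ends: HAT1 was highest in 25 libraries and HAT2 in the other 3, ATHB4 was lowest in all 28, and ATHB2 lay between ATHB4 and HAT3 in all 28. HAT2 and HAT3 could not be ordered, since HAT2 was above HAT3 in 16 libraries and below it in 12. In whole seedlings, fewer cells of a type and less RNA per cell cannot be told apart.

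**Figure D1:**
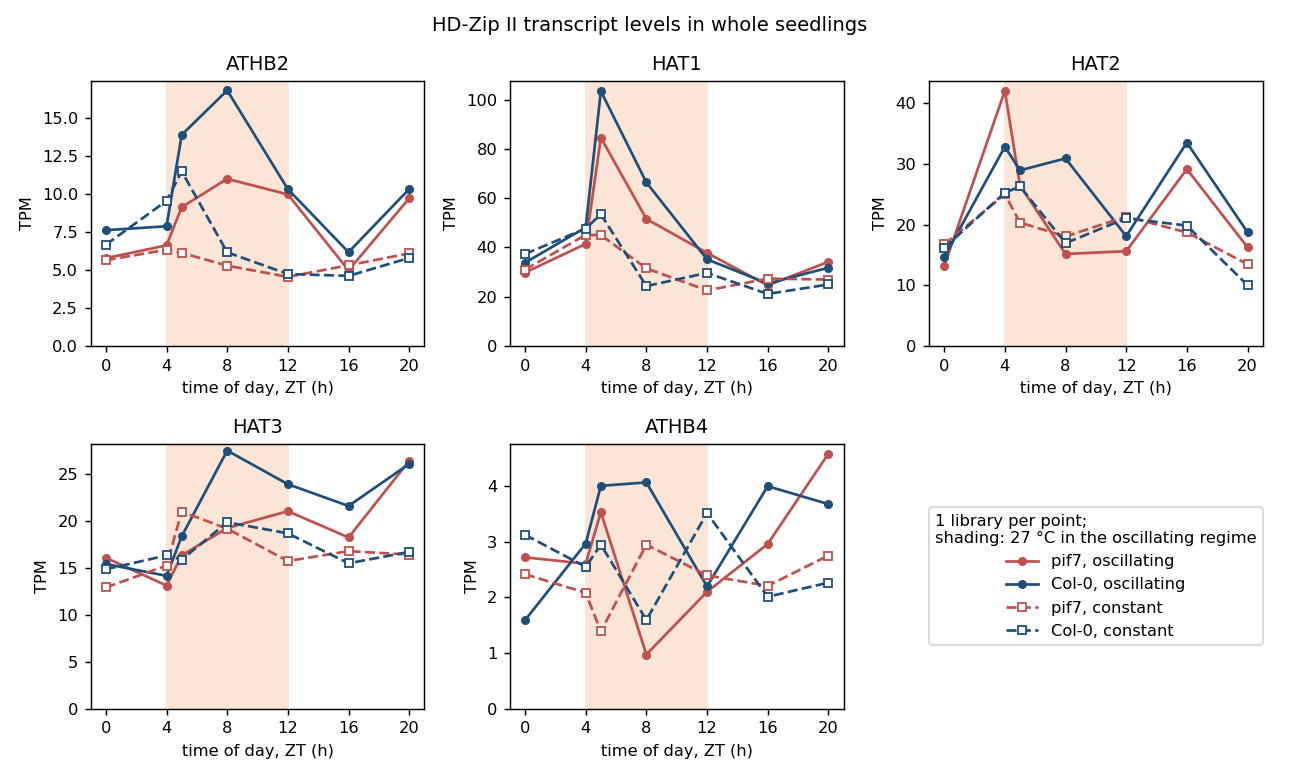
Level of each member (vertical axis, TPM, from 0 in each panel) against time of day (horizontal axis, ZT in h), with 1 library per point, filled circles and solid lines for the oscillating regime, open squares and dashed lines for the constant regime, red for pif7 and blue for Col-0; the shading marks the hours at 27 °C. ATHB2 and HAT1 separate between the regimes inside the shading, ATHB2 with its oscillating maximum at ZT8 and HAT1 at ZT5 in both genotypes, while ATHB4 stays under 4.6 TPM with crossing lines.

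HAT1 and ATHB2 were higher in warm-day seedlings than in constant ones at every time inside the warm window, in both genotypes. The warm window is taken as ZT5, ZT8 and ZT12, the times sampled after the shift to 27 °C. HAT1 in pif7 was at 84.5, 51.6 and 37.8 TPM at ZT5, ZT8 and ZT12 of the oscillating regime, against 45.0, 31.6 and 22.6 TPM at constant 17 °C. HAT1 in Col-0 was at 103, 66.4 and 35.2 TPM in the oscillating regime, against 53.5, 24.4 and 29.7 TPM in the constant one. In each of the 6 pairs the oscillating library was the higher, by 1.19 to 2.73 times, although the ranges over the window overlapped, the ZT12 oscillating values lying below the ZT5 constant ones. The averaged difference was 0.83 ± 0.10 on the log2(scaled TPM + 1) scale, 1.77-fold (SE, limma adjusted p = 0.00031). Such a fold change understates the change of low genes. With 1 library per condition, p sets this difference against its variation between times within a genotype, inside and outside the window. Neither disagreement between the genotypes nor the spread between pools of seedlings is measured by it.

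ATHB2 had a like size of difference at a lower level. In pif7 it was at 9.13, 10.99 and 9.97 TPM at ZT5, ZT8 and ZT12 of the oscillating regime, against 6.13, 5.29 and 4.55 TPM in the constant regime. In Col-0 it was at 13.9, 16.8 and 10.3 TPM in the oscillating regime, against 11.48, 6.16 and 4.74 TPM in the constant regime. All 6 pairs were higher in the oscillating library, by 1.21 to 2.73 times, and the closest pair was Col-0 at ZT5, where the constant library was itself at its highest of the day. The averaged difference was 0.84 ± 0.14, 1.79-fold (SE, limma adjusted p = 0.00141). ATHB2 and HAT1 were thus 2 of 5 members that rose in the warm window, and 10.5% of all genes tested were called higher in the same comparison. Both calls held under all 16 alternatives run, among them leaving out each time and leaving out the Col-0 pair at ZT5, with adjusted p between 0.00032 and 0.0326.

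The other 3 members did not pass in the warm window. HAT3 had a difference of 0.18 ± 0.11 (adjusted p = 0.28). By unscaled TPM it was higher in 5 of 6 pairs, while its scaled log2 difference in pif7 was -0.32 at ZT5 and -0.05 at ZT8. Its level was 16.3 to 27.5 TPM (median 20.1) in the oscillating libraries and 15.7 to 21.002 TPM (median 18.9) in the constant ones. ATHB4 had 0.11 ± 0.22 (adjusted p = 0.766) and HAT2 0.09 ± 0.16 (adjusted p = 0.748), each higher in 3 of 6 pairs. The 95% intervals of the difference reached 0.43 for HAT3 and for HAT2, below the values of ATHB2 and HAT1, and 0.59 for ATHB4. The precision for ATHB4 was the lowest of the 5, at a level of 0.975 to 4.07 TPM in the oscillating and 1.39 to 3.52 TPM in the constant window. For all 5 members the median difference was 0.18, beside -0.00 over all genes tested.

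**Figure D2:**
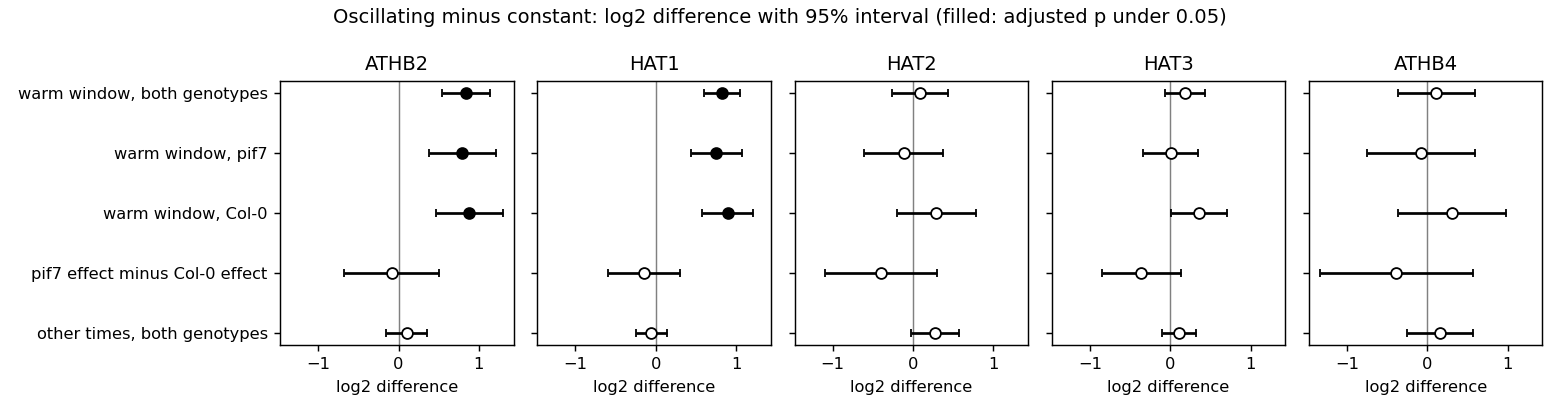
Difference between oscillating and constant libraries for each member (horizontal axis, log2 difference; points with 95% intervals from limma), for the warm window in both genotypes, in pif7, in Col-0, for the pif7 difference minus the Col-0 difference, and for the times outside the window. Filled points passed at an adjusted p under 0.05: only the 3 warm window rows of ATHB2 and HAT1 are filled, at 0.75 to 0.90.

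Within each genotype alone, the same genes passed. In pif7 the warm window difference was 0.79 ± 0.20 for ATHB2 (adjusted p = 0.0395) and 0.75 ± 0.15 for HAT1 (adjusted p = 0.0157), where 2.34% of all genes were called higher. In Col-0 it was 0.88 ± 0.20 for ATHB2 (adjusted p = 0.0237) and 0.90 ± 0.15 for HAT1 (adjusted p = 0.00589), where 2.73% were called higher. These calls within 1 genotype rest on 3 pairs and were not firm: without ZT8 neither gene passed in either genotype, with ATHB2 at 0.75 and 0.71 in pif7 and Col-0 (adjusted p = 0.232 and 0.257) and HAT1 at 0.81 and 0.70 (adjusted p = 0.0834 and 0.128). Fitted on their own pairs only, neither passed either (adjusted p = 0.134 to 0.189).

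Whether the regime difference depended on the genotype was tested directly. In Col-0 the warm window difference of HAT3 was 0.36 ± 0.16 (adjusted p = 0.22), higher in 3 of 3 pairs, and in pif7 it was 0.00 ± 0.16 (adjusted p = 0.992). The difference itself, pif7 minus Col-0, was -0.36 for HAT3 (95% interval -0.85 to 0.13), -0.40 for HAT2 (-1.10 to 0.29) and -0.39 for ATHB4 (-1.34 to 0.57). For ATHB2 it was -0.09 (-0.68 to 0.51) and for HAT1 -0.14 (-0.59 to 0.30). All 5 values were below 0 and none passed (limma adjusted p = 1 for each, 0 of 5 with an unadjusted p under 0.05). No gene at all passed this comparison (0% of 21031), and 279 had an unadjusted p under 0.05. The shared sign of the members depended on ZT8: without ZT8 the value was 0.036 for ATHB2, 0.39 for ATHB4 and 0.11 for HAT1. The intervals admit no difference as well as one in either direction, apart from their bounds.

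The same comparison was made at single times. At ZT5, after 1 h at 27 °C, HAT1 was already 1.95-fold higher (0.96 ± 0.15, limma adjusted p = 0.00252), while ATHB2 had 0.42 ± 0.16 (adjusted p = 0.142), and 4.03% of all genes were called higher. At ZT8 both passed, ATHB2 with 1.05 ± 0.16 (adjusted p = 0.00242) and HAT1 with 0.97 ± 0.15 (adjusted p = 0.00311), where 5.18% were called higher. At ZT12 ATHB2 was still at 1.04 ± 0.16 (adjusted p = 0.00181) and HAT1 at 0.54 ± 0.15 (adjusted p = 0.0319), where 9.13% were called higher. Tested directly, the difference at ZT12 minus that at ZT5 was 0.62 ± 0.22 for ATHB2 (adjusted p = 0.133) and -0.42 ± 0.21 for HAT1 (adjusted p = 0.292), in a contrast that called 6.77% of all genes in either direction, so neither course was shown to change within the window. Without the Col-0 pair HAT1 at ZT5 rests on pif7 alone, with 0.92 (adjusted p = 0.0833), and HAT1 at ZT12 then narrowly missed the threshold at an unchanged 0.54. HAT1 at ZT12 missed it as well on unscaled TPM (0.48, adjusted p = 0.0902), after quantile normalization (0.48, adjusted p = 0.0513), without ZT5 (0.54, adjusted p = 0.0504) and fitted on its own pairs (adjusted p = 0.186).

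**Figure D3:**
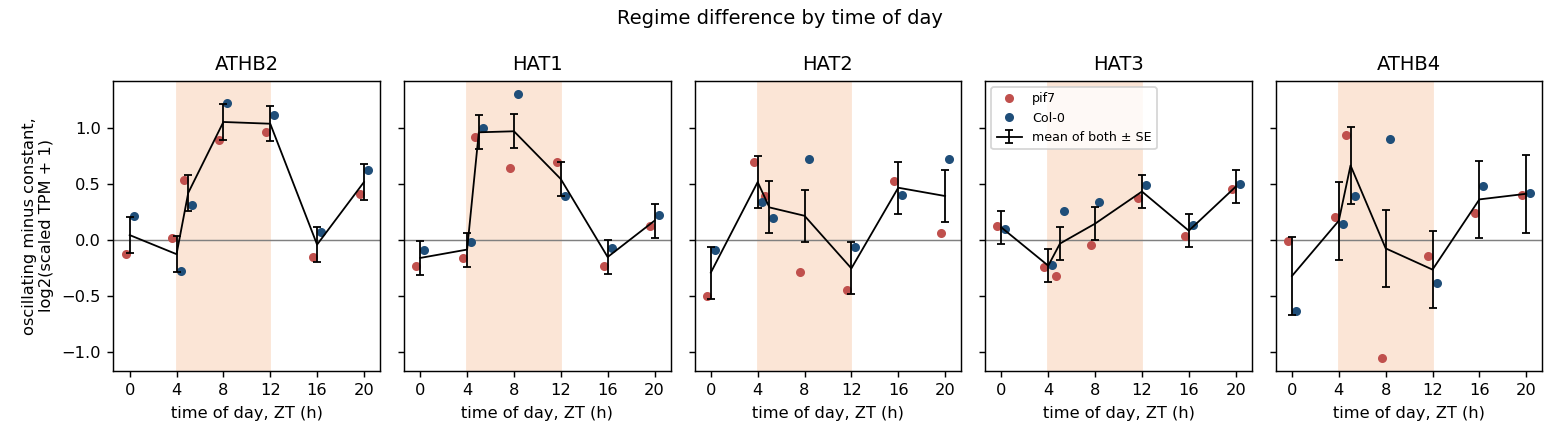
Oscillating minus constant difference at each time for each member (vertical axis, log2(scaled TPM + 1); horizontal axis, ZT in h), with red points for the pif7 pair, blue points for the Col-0 pair and the black line for the fitted mean of both ± SE; the shading marks the hours at 27 °C. HAT1 stands at 0.96, 0.97 and 0.54 at ZT5, ZT8 and ZT12 and ATHB2 at 0.42, 1.05 and 1.04, both near 0 at ZT4 and ZT16.

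Outside the window no member passed between the regimes, and 5.32% of all genes did in either direction. Averaged over ZT0, ZT4, ZT16 and ZT20, the difference was 0.10 ± 0.12 for ATHB2, -0.05 ± 0.09 for HAT1, 0.27 ± 0.14 for HAT2, 0.11 ± 0.10 for HAT3 and 0.16 ± 0.19 for ATHB4 (limma adjusted p = 0.263 to 0.747, 0 of 5 with an unadjusted p under 0.05). At ZT16, 4 h after the return to 17 °C, ATHB2 was at 4.98 TPM in oscillating and 5.31 TPM in constant pif7 seedlings, and at 6.17 TPM in oscillating and 4.61 TPM in constant Col-0 seedlings. HAT1 at the same time was at 24.6 TPM against 27.4 TPM in pif7, and at 25.4 TPM against 21.2 TPM in Col-0. Both genes were thus within 1.34 times of their constant level by then. The window difference minus the difference at the other times was 0.74 ± 0.18 for ATHB2 (limma adjusted p = 0.0236) and 0.88 ± 0.14 for HAT1 (limma adjusted p = 0.0025), where 5.28% of all genes were called higher, and the call for ATHB2 was lost without ZT8 (0.63, adjusted p = 0.135) among others.

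At ZT20, in the dark, all 5 members were higher by unscaled TPM in the oscillating library of both pairs. The scaling factors were also higher in these libraries, at 1.15 in pif7 and 1.12 in Col-0, against 0.99 and 1.03 in the constant ones. How many of all genes were higher in both pairs was not counted. ATHB2 was at 9.71 TPM in oscillating and 6.09 TPM in constant pif7 seedlings, and at 10.3 TPM in oscillating and 5.79 TPM in constant Col-0 seedlings (0.52 ± 0.16, adjusted p = 0.213). HAT3 was at 26.4 TPM against 16.4 TPM in pif7, and at 26.1 TPM against 16.7 TPM in Col-0 (0.48 ± 0.15, adjusted p = 0.227). ATHB4 was at 4.58 TPM against 2.75 TPM in pif7, and at 3.68 TPM against 2.27 TPM in Col-0 (0.41 ± 0.35, adjusted p = 0.675). None of these passed. HAT2 was at 16.3 TPM against 13.5 TPM in pif7, and at 18.8 TPM against 10.03 TPM in Col-0 (0.39 ± 0.23, adjusted p = 0.575). HAT1 was 1.27 times higher by unscaled TPM in both pairs (scaled difference 0.17 ± 0.15, adjusted p = 0.688). After scaling, the log2 difference of HAT1 was 0.13 in pif7 and 0.22 in Col-0, and that of HAT2 in pif7 was 0.06. The median difference of the members at this time was 0.41 beside 0.00 for all genes, and 0.214% of all genes were called higher, against 0.319% at ZT0, where the members lay between -0.32 and 0.11 and none passed.

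HAT2, the auxin-responsive member, had its largest mean differences over the genotypes at ZT4 and ZT16, but the genotypes did not share this order. At ZT4, the time of the shift, it was at 42.1 TPM in oscillating and 25.02 TPM in constant pif7 seedlings, and at 32.9 TPM in oscillating and 25.3 TPM in constant Col-0 seedlings (0.52 ± 0.23, adjusted p = 0.265). At ZT16 it was at 29.2 TPM against 18.7 TPM in pif7, and at 33.5 TPM against 19.9 TPM in Col-0 (0.47 ± 0.23, adjusted p = 0.204). After scaling, the ZT16 log2 difference was 0.53 in pif7 and 0.40 in Col-0. In Col-0 alone the largest differences were 0.73 at ZT20 and 0.72 at ZT8, against 0.06 and -0.29 in pif7 at these times. At ZT12 HAT2 was lower in both oscillating libraries, with 15.6 TPM against 21.4 TPM in pif7 and 18.1 TPM against 21.1 TPM in Col-0 (-0.25 ± 0.23, adjusted p = 0.5). None of these passed, and 2.54% of all genes at ZT4 and 1.42% at ZT16 were called higher.

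Across the day, 4 of 5 members varied in the oscillating regime and 2 of 5 in the constant regime. In the oscillating libraries HAT1 (adjusted p = 3.18e-06), ATHB2 (0.000335), HAT2 (0.00142) and HAT3 (0.00212) passed limma's F test over the 7 times, and ATHB4 did not (adjusted p = 0.33). In the constant libraries HAT1 (adjusted p = 0.00186) and HAT2 (0.00932) passed, and ATHB2 (0.101), HAT3 (0.153) and ATHB4 (0.9) did not. Of all genes, 65.7% passed in the oscillating and 30.6% in the constant libraries, so a pass was common in both, and whether a gene's course differed between regimes is not tested by these counts. HAT2 did not pass in the constant libraries without ZT20 (adjusted p = 0.0859), and ATHB4 passed in the oscillating libraries without ZT8 (adjusted p = 0.0493).

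The times of the highest and lowest library describe the courses, each resting on 1 library and with no test between members. HAT1 had its maximum at ZT5 in both oscillating genotypes, and its constant maximum at ZT4 in pif7 (45.1 TPM) and at ZT5 in Col-0 (53.5 TPM). ATHB2 had its oscillating maximum at ZT8 in both genotypes, while its constant maximum was at ZT4 in pif7 (6.34 TPM) and at ZT5 in Col-0 (11.48 TPM). HAT1 and ATHB2 shared an oscillating minimum at ZT16, and in the constant regime they had the same maxima and minima, the minima at ZT12 in pif7 and at ZT16 in Col-0. HAT3 had its oscillating minimum at ZT4, at 13.1 TPM in pif7 and 14.2 TPM in Col-0, where HAT2 was at or near its maximum.

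The check of the mutant came out as labelled: PIF7, the basic helix-loop-helix factor mutated in pif7, was at 1.91 to 13.1 TPM in pif7 and at 8.42 to 38.6 TPM in Col-0, and lower in pif7 in 14 of 14 pairs (-1.54 ± 0.10, limma adjusted p = 2.32e-08). Transcript from the locus was thus still read in the mutant.

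Between genotypes, no member passed, and ATHB2 came nearest. ATHB2 had a lower unscaled TPM in pif7 than in Col-0 in 12 of 14 pairs of the same regime and time. The median ratio was 0.844, with a range of 0.533 to 1.15. After scaling, the constant pair at ZT12, 1 of these 12, was at 0.04 on the log2 scale. Its averaged difference was -0.26 ± 0.07, with an unadjusted p of 0.00165 and a limma adjusted p = 0.153, in a comparison that called 0.361% of all genes, PIF7 among them. The other 4 members lay between -0.14 ± 0.12 (ATHB4) and -0.08 ± 0.05 (HAT1), with adjusted p = 0.608 to 0.752.

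The ATHB2 values at the 3 times with the lowest fitted differences were as follows, chosen after their values were seen, and no test compared the times with each other. At ZT4 it was at 6.62 TPM in pif7 and 7.88 TPM in Col-0 under the oscillating regime, and at 6.34 TPM in pif7 and 9.55 TPM in Col-0 at constant 17 °C. At ZT5 it was at 9.13 TPM in pif7 and 13.9 TPM in Col-0 under the oscillating regime, and at 6.13 TPM in pif7 and 11.48 TPM in Col-0 in the constant regime. At ZT8 the values were 10.99 TPM in pif7 and 16.8 TPM in Col-0 under the oscillating regime, and 5.29 TPM in pif7 and 6.16 TPM in Col-0 in the constant regime. Every one of these 6 pairs was lower in pif7, also in the constant regime, where the morning maximum of Col-0 had no counterpart of that size in pif7. The fitted differences were -0.36 ± 0.16 at ZT4, -0.69 ± 0.16 at ZT5 and -0.42 ± 0.16 at ZT8, with unadjusted p of 0.0427, 0.00103 and 0.0217 and limma adjusted p of 1, 0.73 and 1. At most 5 genes of 21031 were called between the genotypes at any single time (0.0238% at ZT4, 0.00951% at ZT5 and 0.0143% at ZT8).

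**Figure D4:**
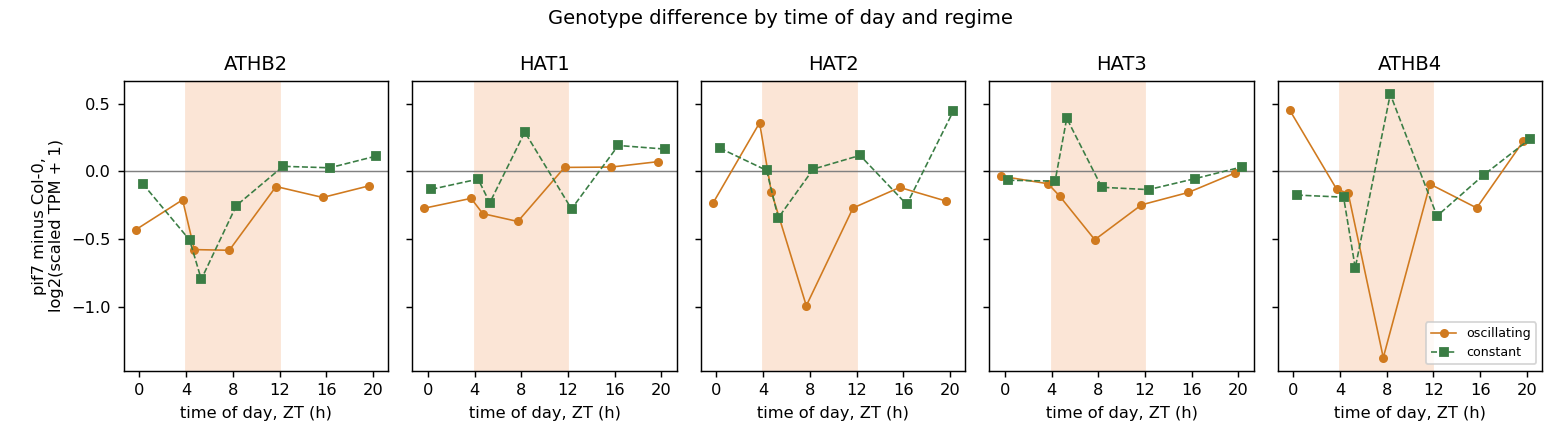
pif7 minus Col-0 difference of each member at each time (vertical axis, log2(scaled TPM + 1); horizontal axis, ZT in h), with 1 pair per point, circles for the oscillating and squares for the constant regime; the shading marks the hours at 27 °C in the oscillating regime. ATHB2 lies below 0 from ZT0 to ZT8 in both regimes, and the lowest points of HAT1, HAT2, HAT3 and ATHB4 are the oscillating pair at ZT8.

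In the oscillating warm window the pif7 values of all 5 members were below those of Col-0 on average. The differences were -0.43 ± 0.16 for ATHB2, -0.22 ± 0.12 for HAT1, -0.47 ± 0.17 for HAT2, -0.31 ± 0.10 for HAT3 and -0.55 ± 0.24 for ATHB4. No member passed (limma adjusted p = 0.678 to 1), although 4 of 5 had an unadjusted p under 0.05, as had 907 of 21031 genes, and 0.119% of all genes were called. The ZT8 pair carried much of it: HAT2 was at 15.2 TPM in pif7 and 30.9 TPM in Col-0, HAT3 at 19.2 TPM in pif7 and 27.5 TPM in Col-0, and ATHB4 at 0.975 TPM in pif7 and 4.07 TPM in Col-0. Without ZT8 the differences were -0.21 for HAT2, -0.22 for HAT3, -0.13 for ATHB4, -0.35 for ATHB2 and -0.14 for HAT1. At constant temperature ATHB2 had -0.21 ± 0.10 and the other 4 members lay between -0.09 and 0.02, with no member past the test (limma adjusted p = 1.00 for each, 0 of 5 with an unadjusted p under 0.05, 0.0903% of all genes called). At the oscillating times outside the window the range was -0.24 (ATHB2) to 0.07 (ATHB4), again with no member past the test (limma adjusted p = 1.00 for each, 0 of 5 with an unadjusted p under 0.05, 0.119% of all genes called). The oscillating window values share their libraries with the regime differences above.

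ATHB2 and HAT1 were also the members whose levels ran most alike. Over the 28 libraries, which share genotype, regime and time of day, Pearson's r between them was 0.77 (Spearman's rho 0.80), with 0.74 within the 14 oscillating and 0.78 within the 14 constant libraries. The other 9 pairs of members had r between -0.05 (HAT2 and HAT3) and 0.47 (ATHB2 and HAT3). Among 15724 other genes with a mean of at least 5 TPM, the 3 most like ATHB2 were HFR1 (r = 0.86), an atypical helix-loop-helix protein that restrains shade responses, FUC95A (0.83), a fucosidase that trims xyloglucan in the wall, and XTH24 (0.83), a xyloglucan endotransglucosylase. For HAT1 they were SKU5 (0.95), a wall-associated protein of directional growth, XT1 (0.94), a xyloglucan xylosyltransferase, and again FUC95A (0.93).

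The remaining members resembled other genes. HAT2 ran with PUB25 (0.91), a ubiquitin ligase, AT4G35320 (0.89) and IAA1 (0.87), an auxin-induced repressor. HAT3 ran with WNK1 (0.80), a protein kinase, AT5G14920 (0.78) and LYK3 (0.78), a receptor-like kinase. The highest r for ATHB4 was 0.70, with HSFA1D, a heat shock transcription factor, followed by AT5G02850 (0.65) and UBP9 (0.60), a ubiquitin protease. The genes named for each member were picked from 15724, and ATHB4 had the lowest level, 0.975 to 4.58 TPM. What r such a search reaches among unrelated genes was not tested. By Spearman's rho the top gene was the same only for ATHB4, and UBP9 had a rho of 0.48.

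Among the other 5 HD-Zip II genes, ATHB17 rose in the warm window. It was at 2.99 to 8.10 TPM (median 5.16) in the 6 oscillating libraries and 1.71 to 4.18 TPM (median 2.99) in the 6 constant ones, higher in 5 of 6 pairs (0.63 ± 0.16, limma adjusted p = 0.0153). The call was lost without ZT5 (0.48, adjusted p = 0.0866), without ZT8 (0.60, adjusted p = 0.111) and when only the pairs were fitted (adjusted p = 0.0674). HAT9, HAT14, HAT22 and ATHB18 had 0.04 to 0.20 and did not pass. HAT22 lay between HAT1 and HAT2 in level, with a median of 28.8 TPM, and had a difference of 0.06 ± 0.14.

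Related homeobox genes moved in both directions or not at all. Of 16 HD-Zip I genes tested out of 17, 3 rose and 2 fell in the warm window, with a median difference of 0.00, beside 10.5% of all genes called higher and 8.97% called lower. ATHB13 had 0.62 ± 0.09 and ATHB16 0.59 ± 0.11, both regulators of leaf growth, and ATHB51, a regulator of leaf margins and flower formation, had -0.64 ± 0.20 (limma adjusted p = 0.00072, 0.00363 and 0.0402). Without ZT8 only 1 HD-Zip I gene rose and none fell, and the ATHB51 call was lost under 8 of 15 alternatives. None of the 5 HD-Zip III genes, which set the upper side of the leaf and act with HD-Zip II proteins, passed (median -0.01). Of 4 little zipper genes, whose products block HD-Zip III dimers, ZPR1 rose (0.63 ± 0.09, limma adjusted p = 0.00043, 6 of 6 pairs). Of 8 leaf polarity genes, ARF4 (-0.48 ± 0.10) and ARF3 (-0.36 ± 0.10), auxin response factors of the lower side, fell (limma adjusted p = 0.00448 and 0.0226), and neither passed without ZT8 (adjusted p = 0.0558 and 0.145).

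Upstream and beside the members in the shade pathway, 4 of 11 phytochrome and PIF genes and 8 of 20 shade-induced genes rose in the warm window, and none fell, where 10.5% of all genes were called higher and 8.97% lower. PIF4 had 1.47 ± 0.44, PIF5 1.20 ± 0.37 and PIF1 0.65 ± 0.13 (limma adjusted p = 0.0301, 0.036 and 0.00478, each higher in 6 of 6 pairs). Without ZT12, PIF4 and PIF5 had 0.62 and 0.63 and did not pass (adjusted p = 0.348 and 0.355), and only 1 of the 11 rose, as also without ZT8, without ZT20 or with no filter. HFR1 had 1.97 ± 0.26, IAA29, an auxin-response repressor, 1.54 ± 0.29, and XTH15, a wall enzyme, 1.40 ± 0.18 (limma adjusted p = 0.00037, 0.00335 and 0.00033), larger values than those of ATHB2 and HAT1. The median of the 20 shade-induced genes was 0.51, beside -0.00 for all genes, 19 were above 0, and the number that rose ranged from 4 to 12 over the alternatives. In the pif7 minus Col-0 difference of the regime effect, 19 of the 20 were below 0 with a median of -0.60 and none passed (0 of 21031 genes did). The median over all genes tested was 0.004 in this contrast, and how many of them were below 0 was not counted. Whether the sign of the shade list depended on ZT8, as for ATHB2, ATHB4 and HAT1, was not tested. None of 14 light and clock regulators passed in the warm window by limma, although 3 fell without ZT12 and 1 rose without ZT5.

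**Figure D5:**
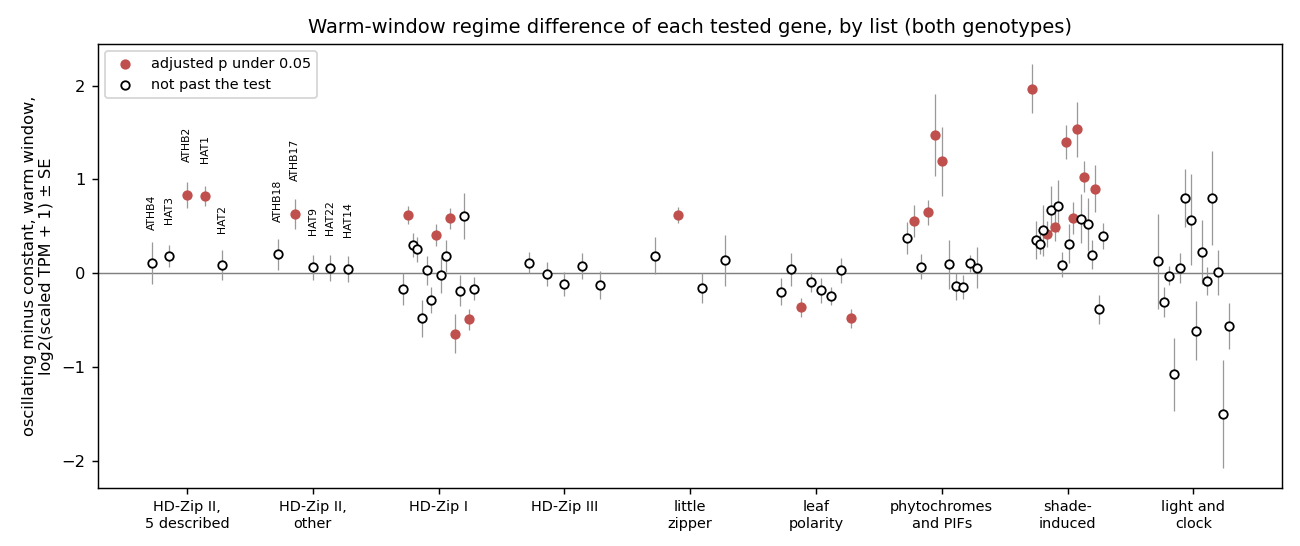
Warm window difference between oscillating and constant libraries, averaged over both genotypes, for each tested gene (vertical axis, log2(scaled TPM + 1) ± SE), grouped by gene list along the horizontal axis; red points passed at a limma adjusted p under 0.05 and open points did not. ATHB2 and HAT1 stand at 0.84 and 0.83 above the other members at 0.09 to 0.18, and the largest values of phytochrome, PIF and shade-induced genes lie above them, up to HFR1 at 1.97.

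Library depth ran from 1.32 to 2.82 gigabases, with a median of 2.08 in pif7 and 1.85 in Col-0. By regime the median was 2.05 in the oscillating and 1.91 in the constant libraries. At every oscillating time the pif7 library was the deeper, with 2.47 against 1.32 gigabases in Col-0 at ZT0 and 2.78 against 1.72 at ZT12. Of the shoot meristem list WUS and CLV3 stayed under 1 TPM in all 28 libraries. Summed root markers ranged from 1476 to 1994 TPM in the oscillating and from 1337 to 1882 TPM in the constant warm window, and 3 of 8 tested fell (0 without ZT12 and 1 without ZT8). Vascular markers summed to 174 to 320 TPM in the oscillating and 187 to 263 TPM in the constant window, and 2 of 10 rose, XCP2 under all 16 alternatives and APL with its call lost under 9 of them. Green tissue markers summed to 7954 to 13828 TPM in the oscillating and 9601 to 16841 TPM in the constant window, and 1 of 4, RBCS1A, fell, a call lost under 8 of 16 alternatives. Outside the window 3 of 4 green tissue markers fell (median -0.94), and for the window minus the other times, the contrast in which ATHB2 and HAT1 passed, 1 of 4 was called higher (median 0.63). Stomatal lineage markers summed to 55.7 to 74.5 TPM in the oscillating and 59.3 to 80.6 TPM in the constant window, with SPCH lower (a call lost under 3 of 16 alternatives), and 0 of 5 meristem markers passed. The 2 seed markers tested rose (OLEO1 with its call lost under 7 of 13 alternatives), as both did outside the window, with the list summing to at most 11.4 TPM. The part of these tissues in the member differences was not tested.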

How the data were processed

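Whole seedlings were sequenced as directional paired-end libraries, per the labels' protocols, and HISAT2, StringTie and the build TAIR10 are named in the submitters' processing notes, with versions and options not given in the sources used here. The deposited tables give, per the file headers, coverage, FPKM and TPM per gene. The deposited coverage (signal per base) and FPKM columns served only to derive depth. In the deposited TPM column the sum over assembled loci is fixed and the 33602 reference genes are listed again beside them, so the reference genes alone do not sum to a constant. TPM was scaled by median-ratio factors and fitted as log2(scaled TPM + 1) by limma 3.58.1 (R 4.3.3) using its trended variance, and Benjamini-Hochberg adjustment ran over 21031 genes (threshold 0.05). Regime comparisons were made within genotype and time, genotype comparisons within regime and time, and the F tests of time of day carried a genotype term. Residual spread comes from times and genotypes. The fits were tested on simulated data.

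The members and gene lists were chosen with earlier results of these data known. Apart from the members, PIF7 and the other HD-Zip II genes, the text names the 3 genes most correlated with each member (mean TPM of at least 5) and up to 3 called genes per list with the largest difference. The direct contrasts of window minus other times and of ZT12 minus ZT5, and the fit without the Col-0 pair at ZT5, were added after seeing the data. The other alternatives changed the pseudocount (0.1 or 5), the filter (none, or a mean TPM of at least 5), the scaling (none, or quantile normalization) and the variance trend (none), fitted only a comparison's own pairs, or left out each time in turn. Sequences come from RefSeq TAIR10.1, where all 26712 matched protein-coding genes overlap the files' coordinates on the same chromosome and strand. Depth was 1.32 to 2.82 gigabases per library. No read counts enter, hence no counting intervals. Summaries used pandas 2.3.3, sequences Biopython 1.88 and plots matplotlib 3.10.9.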

Additional observations from a re-analysis of the deposited data

Results flagged for a closer look

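The regime difference of 2 members differed between the warm window and the other times. For HAT1 the difference at ZT5, ZT8 and ZT12 exceeded that at ZT0, ZT4, ZT16 and ZT20 by 0.88 ± 0.14 on the log2 scale (limma adjusted p = 0.0025), and the call held under all 15 alternatives run. For ATHB2 it was 0.74 ± 0.18 (limma adjusted p = 0.0236), and the call was lost under 5 of 15 alternatives. In this contrast 5.28% of all genes were called higher. The contrast was chosen after seeing the data.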

How the results depend on the processing

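The labels carry no replicate numbers to block on, and each condition has 1 library. The fits were instead paired by condition, regimes within genotype and time, and genotypes within regime and time. The pairs counted in the text are matched in the same way and were counted on unscaled TPM. Of 226 member counts under the alternatives, 208 stayed within 1.5 times of the reported count. These include the comparisons that no member passed, such as those between genotypes, where the count stayed at 0 throughout. All moves fell in comparisons that some member passed. In the warm window of Col-0, 2 members passed, against 0 without ZT8 and on the comparison's pairs only, and 1 without ZT12. In that of pif7, 2 passed, against 0 without ZT8 and on the pairs only, and 1 with no filter, on unscaled TPM and without ZT0, ZT5, ZT12 or ZT16. For the window minus other times, 2 passed, against 1 on unscaled TPM and without ZT4, ZT8, ZT12 or ZT16 (ATHB2 at 0.63 to 0.69, adjusted p = 0.0602 to 0.135). For time of day at constant temperature 2 passed, against 1 without ZT20, and over single times 5 passed, against 3 without the Col-0 pair at ZT5. In most of these the cause was not tested, and leaving out a time leaves fewer pairs.

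Of 1440 values of single members, 1383 kept their direction and side of the threshold, 27 lost the call, 1 gained it and 29 changed sign, none of these past the test in either setting. In the warm window over both genotypes, ATHB4 had -0.17 and HAT2 -0.016 without ZT5, and of the other family genes HAT9 had -0.028 and HAT22 -0.0084 without ZT8 and HAT14 -0.012 without ZT12. In pif7 alone, ATHB4 had 0.40 without ZT8, HAT2 0.051 and HAT3 -0.18 without ZT12, and HAT3 -0.025 after quantile normalization. The pif7 minus Col-0 difference of the regime effect without ZT8 was 0.036 for ATHB2, 0.39 for ATHB4 and 0.11 for HAT1. Outside the window ATHB2 had -0.040 and HAT3 -0.010 without ZT20, and HAT1 0.058 on unscaled TPM. On unscaled TPM at ZT16 ATHB2 had 0.14 and HAT1 0.052, and with a pseudocount of 5 ATHB4 had 0.00042 at ZT8. Between genotypes at constant temperature, HAT1 had 0.011, 0.030 and 0.035 without ZT0, ZT5 and ZT12, ATHB4 0.015 without ZT5, HAT2 -0.0014 without ZT0 and -0.048 without ZT20, and HAT3 0.0062, 0.0079, 0.016, 0.017 and 0.0032 without ZT0, ZT4, ZT8, ZT12 and ZT16 and 0.0061 after quantile normalization. At oscillating times outside the window, without ZT0, ATHB4 had -0.060 and HAT2 0.0058.

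Of 420 values of the other named genes, 353 kept direction and side, 64 lost the call and 3 changed sign. Depth is known only in gigabases, so how far counting error limits ATHB4, the lowest member, could not be set.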
